A study of Drosophila melanogaster with 4 samples.

Results

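The window of chromosome arm 2L from 500001 to 600000 (FlyBase release 5), taken as the surroundings of the gene u-shaped (ush), held 40 peaks of the transcription factor Suppressor of Hairless, Su(H). They are all peaks of the deposited list that overlap the window by at least 1 base. The list holds 14384 peaks in all, of which 13913 lie on the 6 assembled chromosome arms (2L, 2R, 3L, 3R, 4 and X). The window was chosen by its covered length, since more of its bases lay in peaks than in any other 100 kb window of the arms. Covered length, peak number, widths, gaps and scores in it are therefore given as a description, with no test.

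The study mapped Su(H) by chromatin immunoprecipitation and sequencing (ChIP-seq) in Kc167 cells, with 3 ChIP libraries numbered as replicates and 1 input library. Kc167 is an established Drosophila melanogaster line from embryos, labelled as female, of genotype se/e and of the late embryonic stage, and all libraries came from it. Chromatin was fixed with 1.8% formaldehyde for 15 minutes, and the antibody was a rabbit polyclonal against residues 259 to 594 of Su(H). The authors deposited 1 peak list with no value per library. The spread between replicates and the depth of each library are therefore unknown, and the labels name no treatment.

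Notch signals from cell to cell, and Su(H), the relative of mammalian RBPJ, carries that signal to DNA. Without a Notch signal it recruits co-repressors, and with a signal it binds the cleaved Notch receptor and activates target genes. The gene ush encodes a zinc finger protein of the Friend of GATA family, which binds GATA factors such as Pannier and Serpent. In the fly it restrains the formation of crystal cells, a type of blood cell, and it also acts in dorsal closure and bristle patterning. Kc167 is often described as similar to blood cells, and a peak list offers no expression values to check this.

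In the RefSeq gene table, which is of release 6 and was used for gene order only, ush (Dmel_CG2762) follows MED15, a subunit of the Mediator complex. The 4 entries before MED15 are, moving away from ush, CG4297, CG4133, the pseudogene CR43080 and shv. The next 3 entries, cbt and the long non-coding RNAs CR46258 and CR46259, lie within the span of ush. The gene cbt encodes a zinc finger transcription factor of the Krüppel-like type. After them come lwr, which encodes the SUMO-conjugating enzyme Ubc9, and Spp, a signal peptide peptidase. Ets21C, an ETS-domain transcription factor, is the next entry and was added to this list after its place was seen. Which of these genes, exons or introns each release 5 peak overlaps was not analysed here, so no peak below is assigned to a gene.

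Su(H) peaks covered 62.7 kb of the 100 kb, and 42.0% of that length lay in a pair of peaks more than 12 kb wide each. The widest peak ran from 513717 to 527840, a width of 14124 bp, and had a score of 542.67. The other ran from 543923 to 556134, a width of 12212 bp, with a score of 305.86. Only 9 peaks of the arms were at least 10 kb wide. Among those 9, the pair of the ush window ranked 3 and 4 by width, and 6 and 8 by score.

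For both, the width was large beside peaks of like deposited score. Within 10% of the score of the first there were 97 peaks on the arms, this peak included, with a median width of 3820 bp. The widest of the others was 8730 bp, so the window's widest peak was 3.70 times the median and wider than any of them. Within 10% of the score of the second there were 133 peaks, with a median width of 2212 bp and 6694 bp for the widest of the others. That peak was 5.52 times the median. In the plot of width against score both lie at the right edge of the cloud of peaks.

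**Figure D1:**
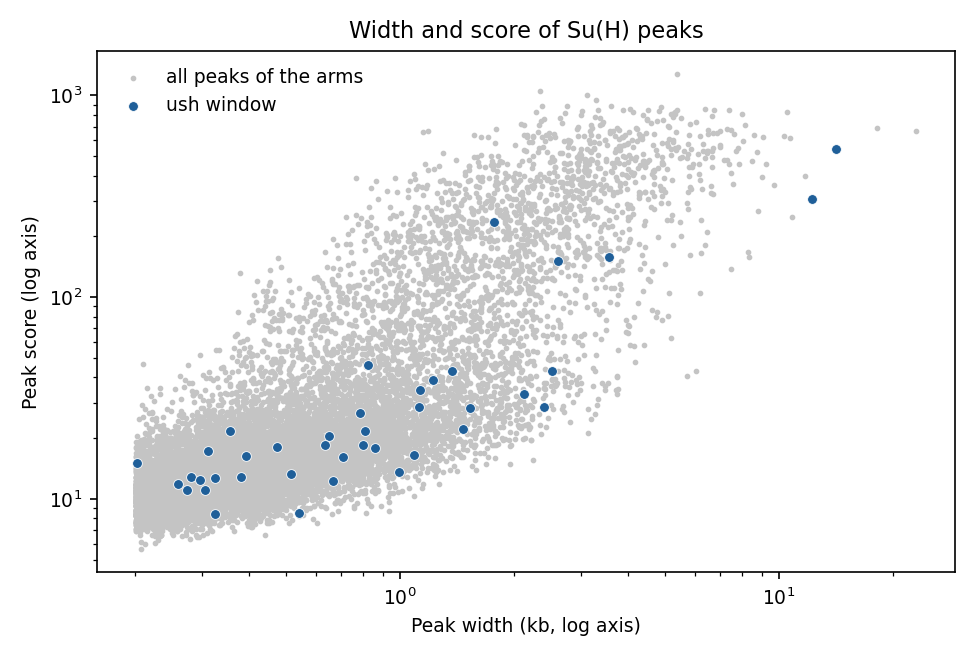
Peak width in kb (x, log axis) against the deposited score (y, log axis) for the 13913 peaks of the arms (grey) and the 40 of the ush window (blue). The pair of widest peaks of that window (14124 and 12212 bp) lie at the right edge at scores of 542.67 and 305.86, and 35 of its 40 peaks have scores under 50.

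The deposited score is on the scale of an unadjusted −log10 p-value, as worked out from its repeated values. These lie on a ladder of Poisson tail probabilities for whole counts against a background mean of 195.9. The count that would give a peak's score against this mean, divided by the mean, is called its fold over background here. A score off the ladder is not that of a whole count against this mean. Where a higher background was used for such a peak, its fold is an upper bound. Which background was used is not known, so folds given below as at most a value are bounds only in that case.

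By this measure the first broad peak reached at most 6.33-fold and the second at most 4.70-fold, against a highest value of 10.4-fold on the arms. The ush window was thus first by covered length but rank 147 of 1204 windows by its highest score. The score of its widest peak was rank 165 among the 13913 peaks, and that of the second broad peak rank 544. Both broad peaks lay off the ladder. These ranks, and the comparison of widths at like score, set them against peaks on and off the ladder. Whether a different background lowered their scores was not tested.

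In the window, 35 peaks had scores under 50, none from 50 to 100, and 5 above 100. Scores from 50 to 100 were uncommon on the arms too, so this empty band does not by itself set the window apart. The 5 were all among the highest 10% of scores of the list (106.8 or above). They made up 12.5% of the window's peaks, against 9.78% over the arms. By their number the window shared rank 10 of 1204 with other windows of 5 such peaks, and windows with 4 were rank 34.

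Besides the broad pair, the high-scoring peaks were 3. The peak from 508936 to 512483 was 3548 bp wide with a score of 157.59 and completes the 3 peaks of the window that are at least 3 kb wide. Peaks that wide were 7.5% of the window's peaks and 3.44% of those of the arms. The peak from 500842 to 503448 was 2607 bp wide with a score of 151.38. Both lie on the left side of the widest peak. The last, from 594221 to 595988, was 1768 bp wide with a score of 236.25 and stood apart near the right end of the window.

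The other 35 peaks were low and had scores from 8.46 to 46.15. Of all 40 peaks, 25 were under 1 kb wide and 12 were from 1 to 3 kb. The narrowest was 202 bp, close to the limit of 201 bp for the whole list. The median width was 792.5 bp, against 452 bp on the arms, and 28 of the 40 peaks were wider than the latter. The median score was 18.4, against 15.8 on the arms, and 27 of the 40 lay above it. The fold over background had a median of at most 1.70, against 1.64 on the arms, and 30 of the 40 peaks stayed under 2-fold. Most peaks of the window were thus of ordinary score, and the window was first by covered length with only 44th place by peak number.

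**Figure D2:**
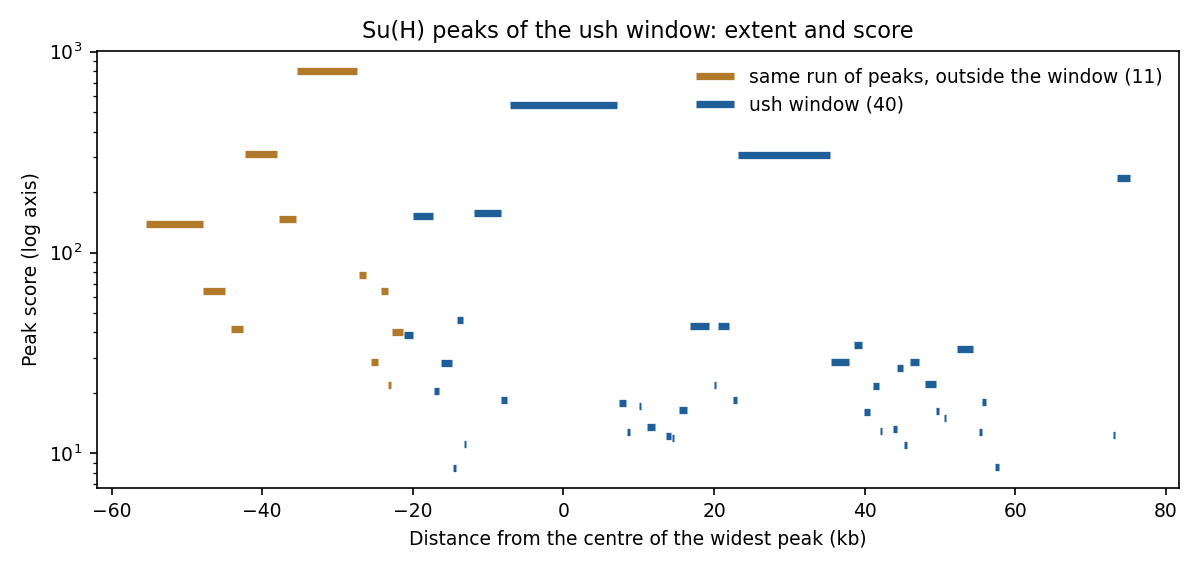
Each bar is a Su(H) peak, drawn from its start to its end as distance in kb from the centre of the widest peak (x), at its deposited score (y, log axis). Blue bars are the 40 peaks of the ush window and ochre bars the 11 peaks of the same run that lie before the window, the highest at a score of 805.03.

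The map of peaks shows an order along the window. Before the widest peak, 9 peaks from 499552 to 513352 filled 85.4% of that stretch. Their median score was 28.16, with a highest value of 157.59. Gaps there had a median of 165.5 bp, and the longest was 1064 bp.

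Between the pair of broad peaks lay 16082 bp without a high-scoring peak. This stretch was not empty, since 11 low peaks from 528169 to 543867 filled 58.7% of it. Their scores ran from 11.88 to 42.99, with a median of 17.21 and folds of at most 1.54 to 2.14. The highest lay from 537595 to 540115 (score 42.96) and from 541368 to 542740 (score 42.99), both nearer to the second broad peak than to the first. The only peak of the window on the ladder, from 535243 to 535501 with a score of 11.88, was the lowest of this stretch.

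After the second broad peak, 16 peaks from 556363 to 578649 filled 60.9% of their stretch. Their scores ran from 8.53 to 34.47 with a median of 17.115, which is close to that of the stretch between the broad peaks. None of these 16 was among the highest 10% of scores. The last of them, from 578108 to 578649, had a score of 8.53, the second lowest in the window.

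There the dense series of peaks ended. The next 15119 bp held no peak, which is the longest gap in the window and 9.68 times the next longest of 1562 bp. Beyond it came the last 2 peaks, a low one from 593769 to 594065 (score 12.35) and the peak of score 236.25.

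Gaps elsewhere in the window were short. Of the 39 gaps between its peaks, 32 (82.1%) were under 1 kb, against 56.1% on the arms. The median gap was 328 bp against 756 bp on the arms. Short gaps were not particular to this window, since that from 400001 to 500000 had a median gap of 307 bp. Gaps under 100 bp numbered 6 of 39 (15.4%), against 9.95% on the arms. The shortest was 55 bp, and no gap on the arms was under 50 bp.

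The window edge at 500001 cuts through the dense series. The first peak inside, from 499552 to 500774, crosses the edge and has a score of 38.86. The last peak outside, from 497973 to 499467, has a score of 39.99 and lies 84 bp before it. At the right edge the last peak inside is that of score 236.25, and the first outside lies from 701848 to 702314 with a score of 27.55. The left edge is thus a limit of the grid and not of the peaks.

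When peaks under 2 kb apart were joined, 38 of the 40 peaks belonged to a run of 49 peaks from 465382 to 578649. This run was 113.3 kb long, and 92.4 kb (81.5%) of it lay in peaks. It was the longest of the 4226 runs on the arms. The next was also on 2L, from 11984704 to 12059707, with a length of 75.0 kb. The length depends on the joining distance. With peaks under 1 kb apart joined, the ush window touched 8 runs. The longest of these, from 465382 to 507871, was 42.5 kb long and lay mostly before the window, second to a run of 43.1 kb on 3R from 12042433 to 12085511.

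The 11 peaks of the run before the window included the highest one of the whole run. It lay from 485374 to 493380, was 8007 bp wide, and its score of 805.03 (at most 7.90-fold) was rank 27 on the arms. A peak from 478534 to 482806 had a score of 310.86, and the first of the run, from 465382 to 472859, was 7478 bp wide with a score of 138.16. These 11 peaks had a median score of 64.43 and a median width of 1642 bp, both above the medians of the ush window. In all, the run held 8 peaks of the highest 10% of scores and 6 peaks of at least 3 kb. Values of the 11 are given as a description, since the run was drawn around the window.

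**Figure D3:**
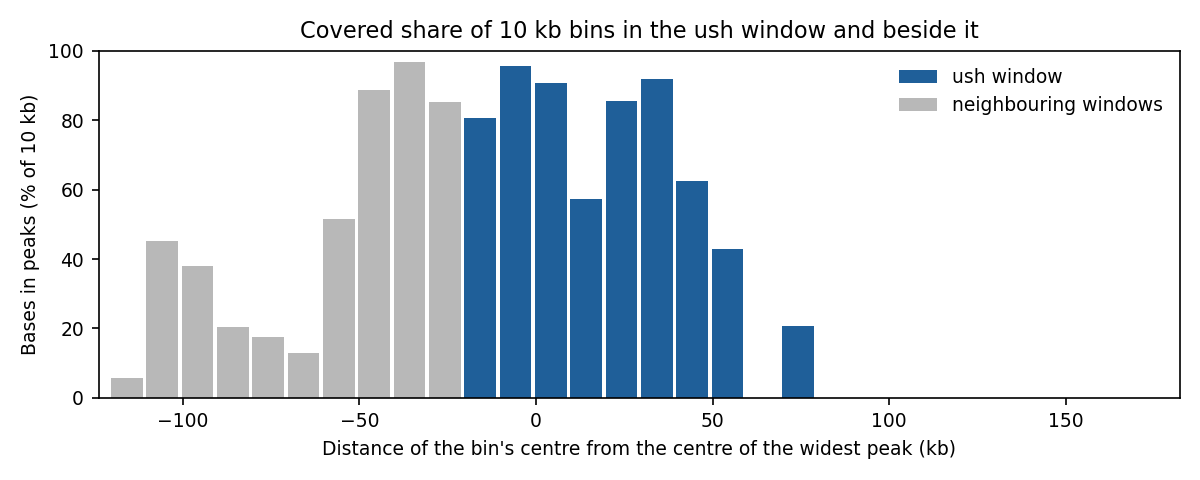
Share of bases in peaks (y, percent of each 10 kb bin) against the distance of the bin's centre from the centre of the widest peak (x, kb). Bars of the ush window (blue) peak at 95.7%, the grey bars just before it reach 96.8%, and all bins after the window are at 0.

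In bins of 10 kb the covered share rose from 13.1% between 450001 and 460000 to 51.6% in the next bin and 88.6% in the one after. In the ush window it was 80.5% in the first bin, 95.7% and 90.8% in the bins of the widest peak, and 57.2% from 530001 to 540000. It returned to 85.6% and 91.9% at the second broad peak and then fell over 62.4% and 42.8% to 0 from 580001 to 590000. The last bin held 20.7%. The 2 crests of the window in the plot of bins lie at the broad pair. Another, before the window, is the bin from 480001 to 490000 with 96.8%. It is shared by 3 peaks, of which that of score 805.03 is the highest.

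The neighbouring windows of 2L were unequal. The window before, from 400001 to 500000, had 43 peaks and 46.2 kb covered, rank 7 of 1204. The window before that, from 300001 to 400000, had 6 peaks and 3.33 kb. The window after, from 600001 to 700000, had 0 peaks, and the one from 700001 to 800000 had 5 peaks and 1.93 kb. The stretch without a peak, from 595989 to 701847, was 105.9 kb long. This is rank 205 of the 13907 gaps on the arms, so 1.47% of gaps were at least as long, and rank 42 of 2266 on 2L. The ush window thus had a densely covered window on its left and an empty one on its right.

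Nearly all peaks of the ush window lay off the score ladder, 39 of 40 or 97.5%, against 31.7% on the arms. The 40 are neighbours from 1 list and no replicates, so no interval is given. With 0.5 times the tolerance of the ladder these shares were 100% and 48.4%. That setting is finer than the rounding of the deposited scores, so it can put whole-count scores off the ladder. Among the 520 windows with at least 10 peaks the median share was 20%, and 3 windows had a higher share than the ush window. The high share was not limited to the dense run. On 2L before the run, 29 of 117 peaks (24.8%) were off the ladder, in the run 47 of 49 (95.9%), and from its end to 1 Mb 61 of 63 (96.8%). In the sparse window from 700001 to 800000 all 5 peaks were off it. The ends of the run were seen before these limits were set, and 1 Mb is a round number. Just beyond 1 Mb most peaks of 2L were also off the ladder, so the high share did not end there. How far it reached was not measured. The part of the local background in the covered length of the window was not tested.

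The windows next in covered length were like the ush window in their short gaps and differed from it in some other measures. On 3R, the window from 12000001 to 12100000 had 59.6 kb in 44 peaks and the one from 17400001 to 17500000 had 55.7 kb in 39 peaks. The window of 2R from 9800001 to 9900000 had 54.3 kb in 63 peaks, the largest number of any window. In the order given, their median gaps were 318, 445.5 and 372.5 bp, against 328 bp in the ush window. No window beyond these 4 exceeded 50 kb, and the median window had 5.32 kb.

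In the 3 other windows the widest peak was 7785, 6366 and 4514 bp, against 14124 bp in the ush window. Peaks of at least 3 kb numbered 7, 7 and 1, against 3 in the ush window. Peaks of the highest 10% of scores numbered 7, 10 and 8, against 5. Their highest scores were 551.79, 642.04 and 844.12, all above that of the ush window. Off the ladder were 45.5%, 38.5% and 20.6% of their peaks. The 2 widest peaks together had 22.7%, 21.8% and 13.4% of the covered length there, against 42.0% in the ush window. The ush window had fewer high-scoring peaks than any of the 3, by a score cut that was the same for peaks on and off the ladder. Whether a different background lowered this count was not tested. None of these differences has a replicate check.

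**Figure D4:**
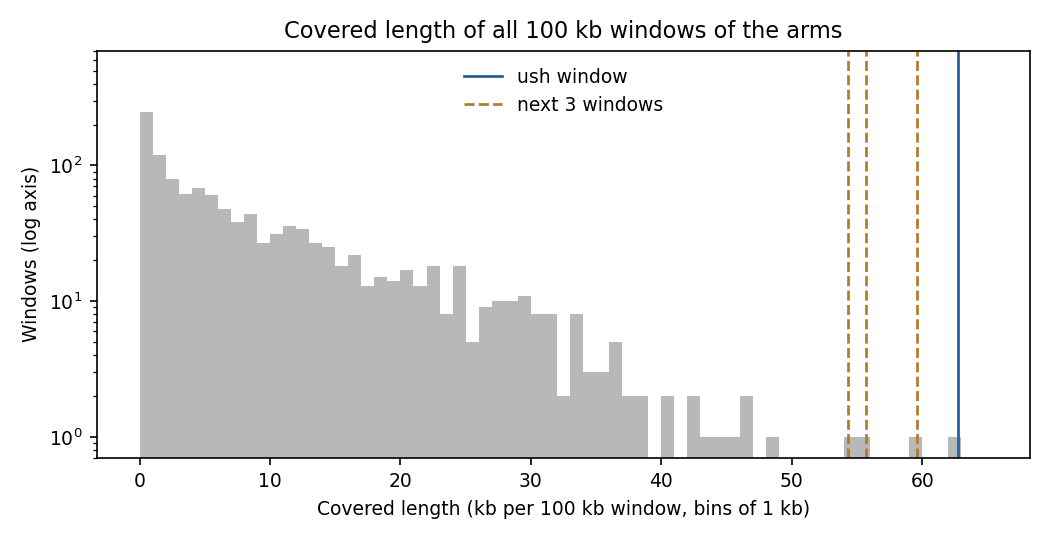
Number of 100 kb windows (y, log axis) by covered length (x, kb per window, bins of 1 kb) for all 1204 windows of the arms. The solid line marks the ush window at 62.7 kb and the dashed lines the next 3 at 59.6, 55.7 and 54.3 kb, while the median window has 5.32 kb.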

How the data were processed

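The data are from 3 Su(H) ChIP libraries and 1 input library of Kc167 cells. Per the file headers, the authors deposited 1 peak list in FlyBase release 5 coordinates, with a start, an end and a score for each peak, and its source column names MACS. Build BDGP5 and the tools MACS2, BWA and CASAVA (versions 1.7.0.2 and 1.7.0.3) are named in the submitters' processing notes, without their roles. Not given in the sources used here are the calling threshold and which libraries were pooled. Depth per library is unknown, and a deeper library would allow more and wider peaks to be called.

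The background mean was fitted as the Poisson mean that placed most of the scores under 40 that at least 25 peaks share within 0.015 of a whole-count value, with a last refinement over the whole list. The ladder took peaks within 0.0075 of such a value. The fit, the window sums and the joining of peaks were tested on simulated data. Windows of 100 kb start at position 1, and covered length counts only bases inside the window (63.2 kb with the crossing peak whole). Arm lengths were taken as the end of the last peak. Named in full were peaks of at least 3 kb and the 3 highest in score; others were named for their place after values were seen, as were the 2R, 3R and 2L runs. Members, lists and measures were chosen with earlier results of these data known. No genome sequence was used, so motifs were not analysed here. The tools were pandas 2.3.3, NumPy 2.4.6, SciPy 1.17.1 and matplotlib 3.10.9 under Python 3.11.15.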

Additional observations from a re-analysis of the deposited data

How the results depend on the processing

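A value was taken as moved where it left 1.5 times the main value. On the main grid the ush window was also first by covered length with the upper 50% of scores (56.7 kb) and after merging (72.9 kb). On other grids the window that holds the centre of the widest peak was first, but it had other limits. It ran from 450001 to 550000 with the grid shifted by 50 kb (74.5 kb covered), from 500001 to 550000 with windows of 50 kb (41.0 kb), and from 400001 to 600000 with windows of 200 kb (108.9 kb). The number of peaks was 22 and 82 in windows of 50 and 200 kb. In the ush window it was 26 with the upper 50% of scores and 8 once neighbours under 1 kb apart were merged. Merging also gave a median width of 5404.5 bp and a median gap of 1419 bp. The upper 50% of scores gave a median score of 28.36 and a median gap of 580 bp. Each of these follows from leaving out or joining peaks. The longest run touching the window was 20.7 kb (rank 4) with peaks joined under 0.5 kb, 42.5 kb (rank 2) under 1 kb, 65.7 kb (rank 1) with the upper 50% of scores, and 113.3 kb again under 3 kb. These 4 settings, and windows sliding by 1 kb, were chosen after seeing the data. The share off the ladder stayed at 97.5% or 100% under 3 alternatives, but with 0.5 times the tolerance that of the arms rose from 31.7% to 48.4%. Such a tolerance is finer than the rounding of the scores and can by itself raise the share. No paired analysis was possible because the only list has no value for any of the 3 ChIP libraries, and no replicate could be left out. The absent depth limits whether low peaks or gaps between them would persist with more reads.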

Other observations

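The grid of 100 kb windows was replaced by windows sliding in steps of 1 kb. The most covered window of 2L was then the one from 466001 to 566000, with 84.8 kb in peaks. It overlaps the ush window from 500001 on. The most covered sliding windows of the other arms held 66.4 kb on 3R (12012001 to 12112000), 60.9 kb on 3L (3372001 to 3472000), 55.3 kb on 2R (7455001 to 7555000), 51.4 kb on X (1954001 to 2054000) and 22.4 kb on arm 4 (479001 to 579000). The lead of the 2L window over the next arm was larger than on the fixed grid, where the ush window had 62.7 kb and the next window 59.6 kb.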
